A study of Homo sapiens with 8 samples.

Results

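The mitosis and proliferation genes followed here are 40 named G2/M and spindle genes, listed by symbol with no threshold on their values. Of these, 39 had a probe set that names them alone, out of 18239 genes so covered on the array. PTTG1, the gene of securin, was read only by 2 probe sets that name several genes, so no value is given for it. Where a gene had several, the one whose mean over the 8 arrays was highest represents it, and all 39 passed the filter on low values. Total RNA came from 231BrM and SKBrM3, breast cancer cell lines derived from brain metastases, both carrying a doxycycline-inducible short hairpin RNA against MET (shMet). Each line was grown in DMEM with serum, either left without doxycycline (the control arrays) or given it for 48 h at 100 ng, with no volume stated. Groups follow the source names of the samples, since the treatment text in the labels gives doxycycline for every sample, controls included. Each of the 4 groups holds 2 arrays. The labels do not say whether a line is 1 clone, or whether replicates are separate cultures. The p-values therefore reflect how far arrays of a group differ, and that spread may be technical. MET encodes a receptor tyrosine kinase that carries growth signals from hepatocyte growth factor. The comparison with and without doxycycline asks how far the transcripts of dividing cells differ once this hairpin is switched on. No group received doxycycline without the hairpin against MET. Effects of MET loss and of doxycycline itself therefore cannot be told apart in any doxycycline difference below.

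Transcripts of mitotic genes accumulate late in the cell cycle and fall again as cells leave division, so their summed level in a culture tracks how many cells are in G2 and mitosis. Cyclin B with CDK1 starts mitosis, the kinetochore joins chromosomes to spindle microtubules, the spindle checkpoint holds back the anaphase-promoting complex until all chromosomes are attached, and cytokinesis then parts the daughter cells. FOXM1 and MYBL2 act with the MuvB complex on promoters that carry a cell cycle genes homology region, and NF-Y binds the CCAAT boxes that often lie beside it.

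Those promoter elements are shown for 5 members, picked only among members whose 150 bases before the start hold both kinds of element. That the elements occur in these 5 is therefore no result. Within that choice the members differ between the lines: CDC20 and ECT2 were higher in 231BrM, HMMR was lower, and KIF11 and KIF4A passed no test. Some members with larger line differences than ECT2, such as BUB1 and NUF2, were not eligible. The sequences are the 150 bases before the gene start from RefSeq (GRCh38.p14), all on the plus strand, written 5′ to 3′. Capitals mark TTTGAA, a form of the homology region, and CCAAT, each on either strand, so that TTCAAA and ATTGG are their reverse complements. CDC20 lies at chr1:43358831-43358980, ECT2 at chr3:172750576-172750725, HMMR at chr5:163460482-163460631, KIF11 at chr10:92592980-92593129 and KIF4A at chrX:70289954-70290103.
CDC20: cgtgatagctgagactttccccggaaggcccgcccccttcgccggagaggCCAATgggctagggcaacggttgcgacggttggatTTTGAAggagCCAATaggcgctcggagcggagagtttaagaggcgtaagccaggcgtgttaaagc
ECT2: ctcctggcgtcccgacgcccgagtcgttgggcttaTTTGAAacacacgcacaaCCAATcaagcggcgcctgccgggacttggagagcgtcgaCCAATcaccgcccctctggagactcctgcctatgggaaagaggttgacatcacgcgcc
HMMR: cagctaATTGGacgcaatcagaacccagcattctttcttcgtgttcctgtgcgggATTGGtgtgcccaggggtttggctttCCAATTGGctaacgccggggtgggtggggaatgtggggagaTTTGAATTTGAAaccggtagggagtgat
KIF11: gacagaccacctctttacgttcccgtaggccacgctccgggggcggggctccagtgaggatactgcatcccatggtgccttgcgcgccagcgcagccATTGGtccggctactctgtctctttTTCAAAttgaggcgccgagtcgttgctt
KIF4A: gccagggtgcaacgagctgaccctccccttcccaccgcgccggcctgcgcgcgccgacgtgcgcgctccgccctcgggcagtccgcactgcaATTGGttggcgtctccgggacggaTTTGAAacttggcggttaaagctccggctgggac
HMMR has TTTGAA in tandem just before its start and an overlapping pair of CCAAT boxes on opposite strands. KIF11 carries its TTTGAA on the minus strand, close to the start, as KIF4A does on the plus strand.

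The RefSeq promoter table held 32 of the 39 members, each with 250 bases before and 50 after the start. TTTGAA occurred in 21 of the 32 windows (65.6%), against 10.5% of the promoters of all genes tested and 15.4% of all 27305 promoters in the table. TTCGAA, the other form searched, occurred in 6.25% of the members and 1.77% of genes tested. CCAAT occurred in 23 members (71.9%) and in 36.4% of genes tested. At least 1 of the 6-base forms together with CCAAT was found in 18 members (56.2%), against 5.11% of genes tested. Among the 16 members with a promoter that were called between the lines, 11 (68.8%) held TTTGAA, close to the share over all members. A match describes letters in the window and not a bound site.

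The arrays first had to show that the hairpin acted. MET read 9.45 and 9.26 on the control arrays and 5.85 and 5.35 on the doxycycline arrays of 231BrM, and 9.26 and 9.20 against 5.76 and 5.71 in SKBrM3. Its log2 value fell by 3.76 in 231BrM and fell by 3.50 in SKBrM3 (standard error 0.15 in each; limma adjusted p = 2.8e-05 and 1.3e-05). On 231BrM doxycycline replicate 1 the 3′ probes of actin stood 1.24 above the 5′ probes, against 0.46 to 0.59 on the other 7 arrays, and 6 members differed by over 0.3 between that array and its replicate. The arrays labelled SKBrM3 read ERBB2, whose amplification defines the parental SK-BR-3 line, at 6.70 to 7.11, against 6.76 to 6.89 in 231BrM. Of 15 luminal and ERBB2 amplicon markers tested on the control arrays, 6 were higher in 231BrM and 3 lower, and of 14 mesenchymal markers 7 were higher and 1 lower. Of all genes 19.8% were higher and 19.9% lower. The mesenchymal marker VIM read 12.72 to 12.78 in SKBrM3, while SPARC read 4.07 to 4.36 there against 6.83 to 7.35 in 231BrM. The luminal factor FOXA1 read 5.82 to 6.39 in SKBrM3 against 4.29 to 5.03 in 231BrM. Luminal keratins went the other way: KRT19 read 6.6 to 6.9 in SKBrM3 against 9.2 to 9.5 in 231BrM, and KRT7 5.9 to 6.2 against 8.0 to 8.3. SKBrM3 below means the arrays so labelled. Of 15 markers of fibroblasts, endothelium, leukocytes and astrocytes, 6 passed the filter; CD68 read 8.17 to 8.37 on every array and PTPRC 3.36 to 3.46.

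On the probe sets used, the mitotic genes lay close to their control level with doxycycline in both lines. In 231BrM none of the 39 members was called at an adjusted p under 0.05 by limma, where 0.162% of the 13002 genes tested were called, and at an unadjusted p under 0.05 there were 8 members higher and none lower, against 6.15% and 3.74% of all genes. In SKBrM3 none was called either, where 3.43% of all genes were, and 6 were higher and none lower at an unadjusted p under 0.05, against 10.4% and 9.81% of all genes. The average over both lines called none (3.04% of all genes were called), with 9 higher and none lower unadjusted, against 11.7% and 7.28%. The differences ran from -0.14 to 0.35 in 231BrM and from -0.17 to 0.49 in SKBrM3 on the log2 scale.

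The members as a group lay slightly above 0. The median member difference was 0.09 in 231BrM, where the median of all genes tested was 0.05, and 0.08 in SKBrM3, where it was 0.01. In 231BrM 32 of 39 members (82.1%) lay above 0, as did 64.2% of all genes, and in SKBrM3 29 (74.4%) did, as did 53.7% of all genes. With each array centred on its median, those counts were 27 and 22 and the medians 0.06 and 0.04, still above 0. Both doxycycline arrays lay above both control arrays for 18 members in 231BrM (25.8% of all genes) and for 22 in SKBrM3 (32.3%). The reverse held for no member in 231BrM (12.1% of all genes) and for 4 in SKBrM3 (27.2%). In both lines at once the arrays separated upward for 10 members, against 9.48% of all genes. In a bulk RNA sample a different share of cycling cells and a different amount of these transcripts per cell cannot be told apart.

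The intervals show what size of change the spread between arrays of a group allows, on the probe set used for each member. That spread may be technical, so the intervals need not cover variation between separate cultures. The 95% interval of the difference lay within 0.5 of 0 on the log2 scale, a 1.41-fold change, for 36 members in 231BrM and for 35 in SKBrM3. Over all members the intervals reached from -0.57 to 0.59 in 231BrM and from -0.46 to 0.78 in SKBrM3. Other probe sets of the same genes are not covered by them. Of all 102 probe sets of the members that passed the filter, 67 lay above 0 and 35 below in 231BrM, and 70 above and 32 below in SKBrM3. The median was 0.07 in each line. The largest difference in size was -0.77 in 231BrM, on a probe set of PRC1, and 0.49 in SKBrM3. On simulated data with changes of 0.5 in size, this fit called 72% of changed genes in the 231BrM comparison and 62% in the SKBrM3 comparison. With changes of 1 it called 100% in each, and 14 and 11 unchanged genes were called as well. The simulated noise was normal and alike in every group, so these rates do not compare the lines. In the data the median gap between replicates over all genes was 0.15 in the 231BrM doxycycline group and 0.08 in the SKBrM3 doxycycline group. The rates may thus be too high for 231BrM. They also depend, through the adjustment of the p-values, on how many changed genes were simulated. In the data 0 genes were called higher in 231BrM, where the largest rise was 0.91, so the simulated rates may not hold there.

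**Figure D1:**
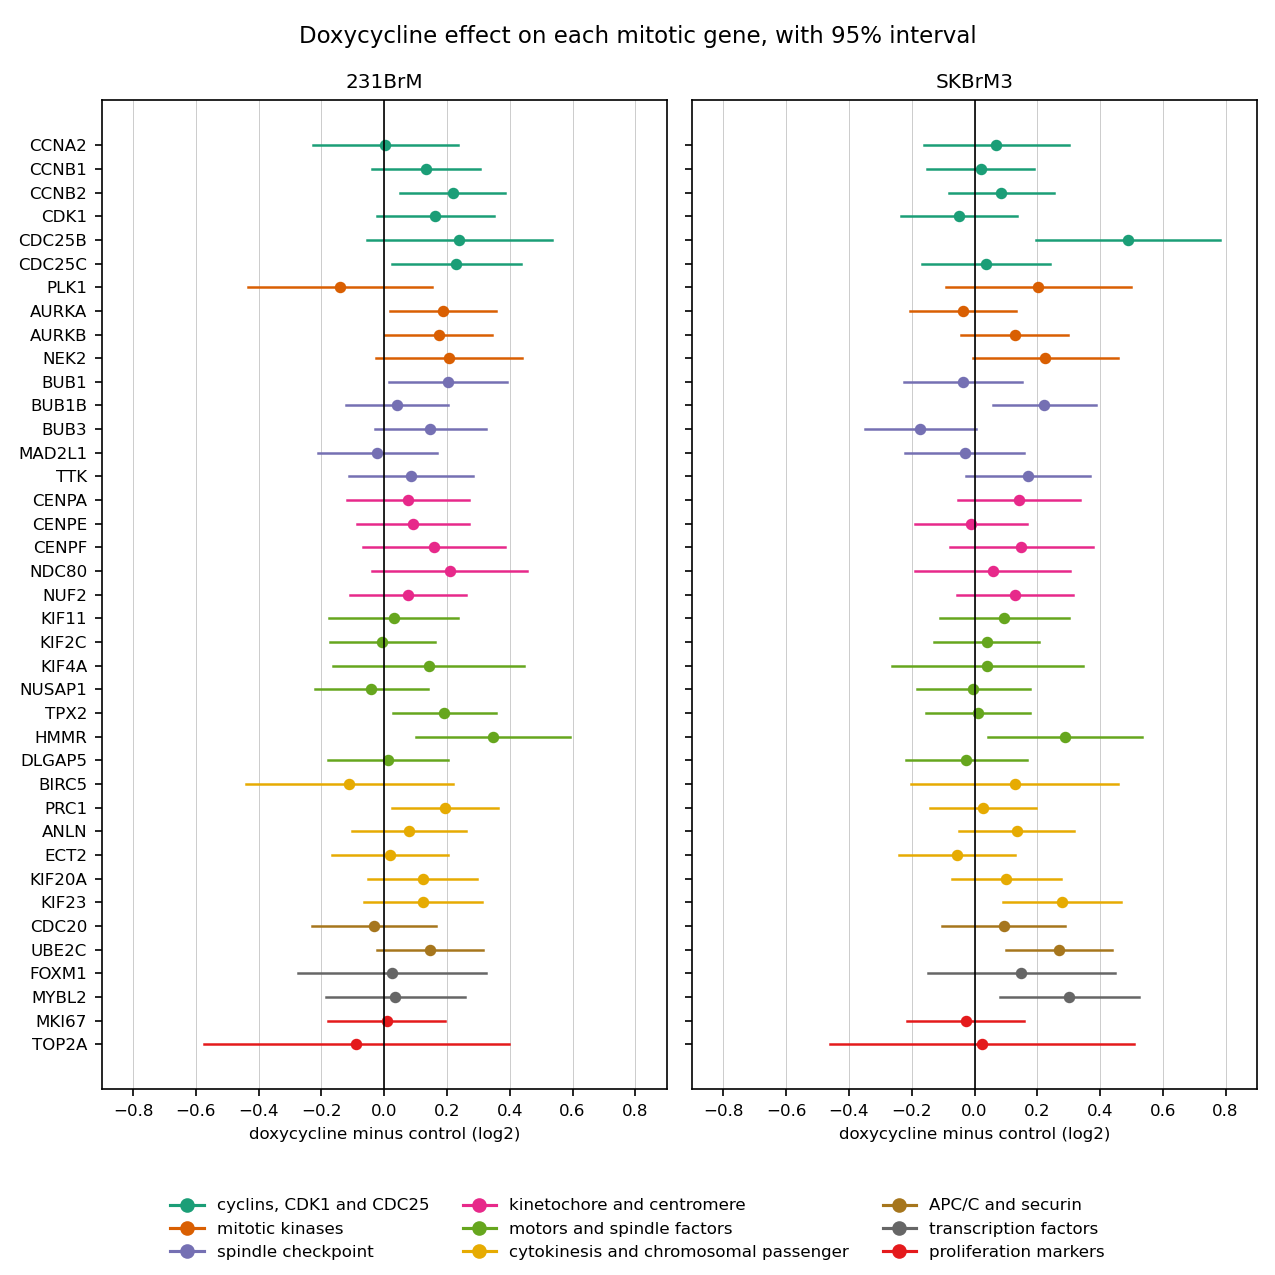
Doxycycline minus control on the log2 scale for each of the 39 members in 231BrM (left) and SKBrM3 (right), with 95% intervals from the limma fit and colours for the gene's role. Nearly all points lie between -0.2 and 0.4; TOP2A has the widest interval, and CDC25B in SKBrM3 lies farthest from 0, at 0.49.

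The proliferation markers lay within 0.1 of control on the probe sets used, and other probe sets gave other values. MKI67, the gene of the Ki-67 antigen found in cycling cells, read 9.49 and 9.60 without and 9.52 and 9.58 with doxycycline in 231BrM, and 9.57 and 9.67 against 9.63 and 9.56 in SKBrM3. The groups overlap in both lines, and the differences were 0.01 (95% interval -0.18 to 0.19) and -0.03 (-0.21 to 0.16). The 5 other probe sets of MKI67 all lay below 0 in 231BrM, at -0.44 to -0.02, and ran from -0.19 to 0.27 in SKBrM3. TOP2A, the topoisomerase that untangles chromosomes before they separate, read 10.89 and 10.94 without and 10.41 and 11.24 with doxycycline in 231BrM, and 10.90 and 11.01 against 10.98 and 10.98 in SKBrM3. The 2 doxycycline arrays of 231BrM lie on either side of the controls, with the lower value on the array of raised 3′ actin signal. Without that array the TOP2A difference in 231BrM was 0.32, and without the other doxycycline array it was -0.50. The other probe sets of TOP2A gave 0.34 and 0.25 in 231BrM, and 0.23 and 0.27 in SKBrM3.

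The cyclins, CDK1 and the CDC25 phosphatases drive entry into mitosis. CCNB1, the cyclin B1 that activates CDK1, read 10.58 and 10.64 without and 10.78 and 10.70 with doxycycline in 231BrM, and 10.67 and 10.64 against 10.67 and 10.68 in SKBrM3. CCNB2, its close relative, read 9.23 and 9.29 against 9.50 and 9.46 in 231BrM, and 9.46 and 9.41 against 9.51 and 9.52 in SKBrM3. For CCNB2 the doxycycline arrays lay above the controls in both lines, by 0.22 and 0.08 (standard error 0.07; adjusted p = 0.42 and 0.56). CDK1, the kinase that cyclin B switches on, read 10.28 and 10.41 against 10.47 and 10.54 in 231BrM, and 10.95 and 10.95 against 10.85 and 10.95 in SKBrM3. Its difference was 0.16 in 231BrM and -0.05 in SKBrM3, and neither passed the test.

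CDC25B, a phosphatase that removes the inhibitory phosphates from CDK1, showed the largest difference of any member. It read 9.62 and 9.65 without and 10.18 and 10.07 with doxycycline in SKBrM3, and 10.16 and 9.93 against 10.47 and 10.10 in 231BrM. The SKBrM3 groups stand apart, while those of 231BrM overlap. The difference was 0.49 in SKBrM3 (standard error 0.13, 1.40-fold, adjusted p = 0.083) and 0.24 in 231BrM (adjusted p = 0.56). Leaving out either 231BrM doxycycline array gave the SKBrM3 change an adjusted p of 0.011, the arrays of SKBrM3 themselves being the same. The 4 other probe sets of CDC25B gave 0.07 to 0.25 in SKBrM3 and -0.61 to 0.08 in 231BrM. The remaining members of the group, CCNA2 and CDC25C, differed by 0.00 and 0.23 in 231BrM and by 0.07 and 0.04 in SKBrM3.

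Of the mitotic kinases, AURKA, which matures the spindle poles, read 10.62 and 10.62 without and 10.85 and 10.76 with doxycycline in 231BrM, and 10.37 and 10.40 against 10.34 and 10.35 in SKBrM3. PLK1, which acts from mitotic entry to cytokinesis, read 7.98 and 7.61 against 7.61 and 7.70 in 231BrM, and 7.36 and 7.33 against 7.67 and 7.43 in SKBrM3. AURKA lay higher with doxycycline in 231BrM and lower in SKBrM3, and PLK1 overlapped in 231BrM and lay higher in SKBrM3. The AURKA differences were 0.19 and -0.04, and those of PLK1 -0.14 and 0.20. The other probe sets of PLK1 disagreed with each other in SKBrM3, at 0.42 and -0.22. NEK2, a kinase of the centrosome, read 9.40 and 9.32 against 9.71 and 9.42 in 231BrM, and 8.61 and 8.57 against 8.83 and 8.81 in SKBrM3, differences of 0.21 and 0.23. AURKB, the kinase of the chromosomal passenger complex, differed by 0.17 and 0.13 without overlap in either line.

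In the spindle checkpoint the differences of BUB1 and BUB3 lay above 0 in 231BrM and below 0 in SKBrM3. For BUB1 the SKBrM3 groups overlapped, at a difference of -0.04 (standard error 0.08), so its sign there is not established. BUB1, a checkpoint kinase at the kinetochore, read 9.78 and 9.78 without and 9.98 and 9.99 with doxycycline in 231BrM, and 9.01 and 8.95 against 8.86 and 9.03 in SKBrM3. BUB3, its binding partner, read 11.25 and 11.33 against 11.46 and 11.42 in 231BrM, and 11.42 and 11.50 against 11.25 and 11.33 in SKBrM3. BUB3 thus lay higher with doxycycline in 231BrM and lower in SKBrM3, without overlap in either. The difference between its 2 effects was 0.32 (standard error 0.11), the smallest p of any member for that comparison, and it did not pass (adjusted p = 0.35). No member was called for a difference between the lines in the doxycycline effect, where 0.0231% of all genes were called. At an unadjusted p under 0.05, 1 member was higher and none lower, against 6.86% and 4.31% of all genes. The other probe sets of BUB3 gave 0.07 and -0.36 in SKBrM3, and -0.01 and 0.05 in 231BrM. On the probe sets used, MAD2L1, TTK and BUB1B, other checkpoint genes, differed by -0.02 to 0.09 in 231BrM and by -0.03 to 0.22 in SKBrM3. Other probe sets of MAD2L1 that passed the filter gave -0.18 and 0.09 in 231BrM, and -0.27 and -0.23 in SKBrM3.

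On the probe sets used, kinetochore and centromere genes lay from 0.07 to 0.21 above control in 231BrM and from -0.01 to 0.15 in SKBrM3. CENPF, a large kinetochore protein that appears in G2, read 9.44 and 9.22 without and 9.56 and 9.42 with doxycycline in 231BrM, and 8.71 and 8.84 against 8.91 and 8.94 in SKBrM3. NUF2, a part of the NDC80 complex that grips microtubules, read 9.04 and 9.04 against 9.19 and 9.04 in 231BrM, and 8.25 and 8.27 against 8.35 and 8.42 in SKBrM3. For CENPF and NUF2 the groups overlapped in 231BrM and stood apart in SKBrM3. Neither passed the test in either line. Another probe set of CENPF gave -0.45 in 231BrM and 0.13 in SKBrM3.

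Among the motors and spindle factors HMMR stood out. HMMR, a hyaluronan receptor that also binds spindle microtubules, read 7.04 and 6.93 without and 7.41 and 7.24 with doxycycline in 231BrM, and 7.82 and 7.55 against 7.98 and 7.96 in SKBrM3. In both lines the doxycycline arrays lay above the controls. The differences were 0.35 in 231BrM, 0.29 in SKBrM3 and 0.32 on average (standard error 0.08, adjusted p = 0.066), the smallest p of any member on average. All 3 other HMMR probe sets also lay above 0, at 0.21 to 0.48 in 231BrM and 0.08 to 0.29 in SKBrM3. KIF11, the motor that pushes spindle poles apart, read 9.84 and 9.70 against 9.88 and 9.71 in 231BrM, and 9.72 and 9.78 against 9.86 and 9.83 in SKBrM3. TPX2, which activates Aurora A on the spindle, read 10.40 and 10.42 against 10.63 and 10.57 in 231BrM, and 10.43 and 10.44 against 10.45 and 10.44 in SKBrM3. TPX2 differed by 0.19 in 231BrM and 0.01 in SKBrM3. KIF2C, a kinesin that takes microtubules apart, read 10.06 and 10.09 against 10.09 and 10.05 in 231BrM, and 9.47 and 9.41 against 9.46 and 9.49 in SKBrM3. KIF4A, NUSAP1 and DLGAP5 differed by -0.04 to 0.14 in 231BrM and by -0.03 to 0.04 in SKBrM3.

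Cytokinesis and chromosomal passenger genes showed the same small range on the probe sets used. KIF23, a motor of the central spindle, read 8.99 and 8.92 without and 9.19 and 9.27 with doxycycline in SKBrM3, and 9.27 and 9.13 against 9.33 and 9.32 in 231BrM. It lay higher without overlap in both lines, by 0.28 (standard error 0.08, adjusted p = 0.11) and 0.12. Without either 231BrM doxycycline array the adjusted p of KIF23 in SKBrM3 was 0.047. BIRC5, the gene of survivin, read 9.60 and 9.63 against 9.24 and 9.77 in 231BrM, and 9.78 and 9.77 against 9.89 and 9.92 in SKBrM3. As for TOP2A, its low value in 231BrM came from the array of raised 3′ actin signal, and without that array the BIRC5 difference was 0.15. ANLN, which scaffolds the contractile ring, read 11.03 and 10.99 against 11.05 and 11.13 in 231BrM, and 10.39 and 10.26 against 10.47 and 10.45 in SKBrM3. PRC1, ECT2 and KIF20A differed by 0.02 to 0.19 in 231BrM and by -0.06 to 0.10 in SKBrM3. Other probe sets of PRC1 that passed the filter gave -0.15 and -0.77 in 231BrM, and -0.20 and -0.33 in SKBrM3.

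UBE2C, the ubiquitin-conjugating enzyme of the anaphase-promoting complex, read 11.40 and 11.41 without and 11.55 and 11.55 with doxycycline in 231BrM, and 11.49 and 11.40 against 11.72 and 11.70 in SKBrM3. The groups stood apart in both lines, by 0.15 and 0.27 (standard error 0.07, adjusted p = 0.53 and 0.093). Its 3 other probe sets lay above 0 as well, at 0.14 to 0.22 and 0.16 to 0.27. Without either 231BrM doxycycline array the adjusted p of UBE2C in SKBrM3 was 0.036. CDC20, which activates the complex at anaphase, read 11.16 and 11.15 against 11.02 and 11.22 in 231BrM, and 10.35 and 10.35 against 10.47 and 10.42 in SKBrM3.

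The transcription factors of the program were no exception. FOXM1, which turns on many of the other members in G2, read 8.44 and 8.23 without and 8.56 and 8.17 with doxycycline in 231BrM, and 8.34 and 8.32 against 8.54 and 8.42 in SKBrM3. MYBL2, the B-Myb partner of MuvB, read 7.45 and 7.31 against 7.43 and 7.41 in 231BrM, and 7.39 and 7.21 against 7.68 and 7.52 in SKBrM3. Both overlapped in 231BrM and stood above control in SKBrM3, by 0.15 and 0.30 (adjusted p = 0.57 and 0.13). Other probe sets of FOXM1 gave -0.26 and -0.25 in 231BrM, and 0.06 and -0.14 in SKBrM3.

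**Figure D2:**
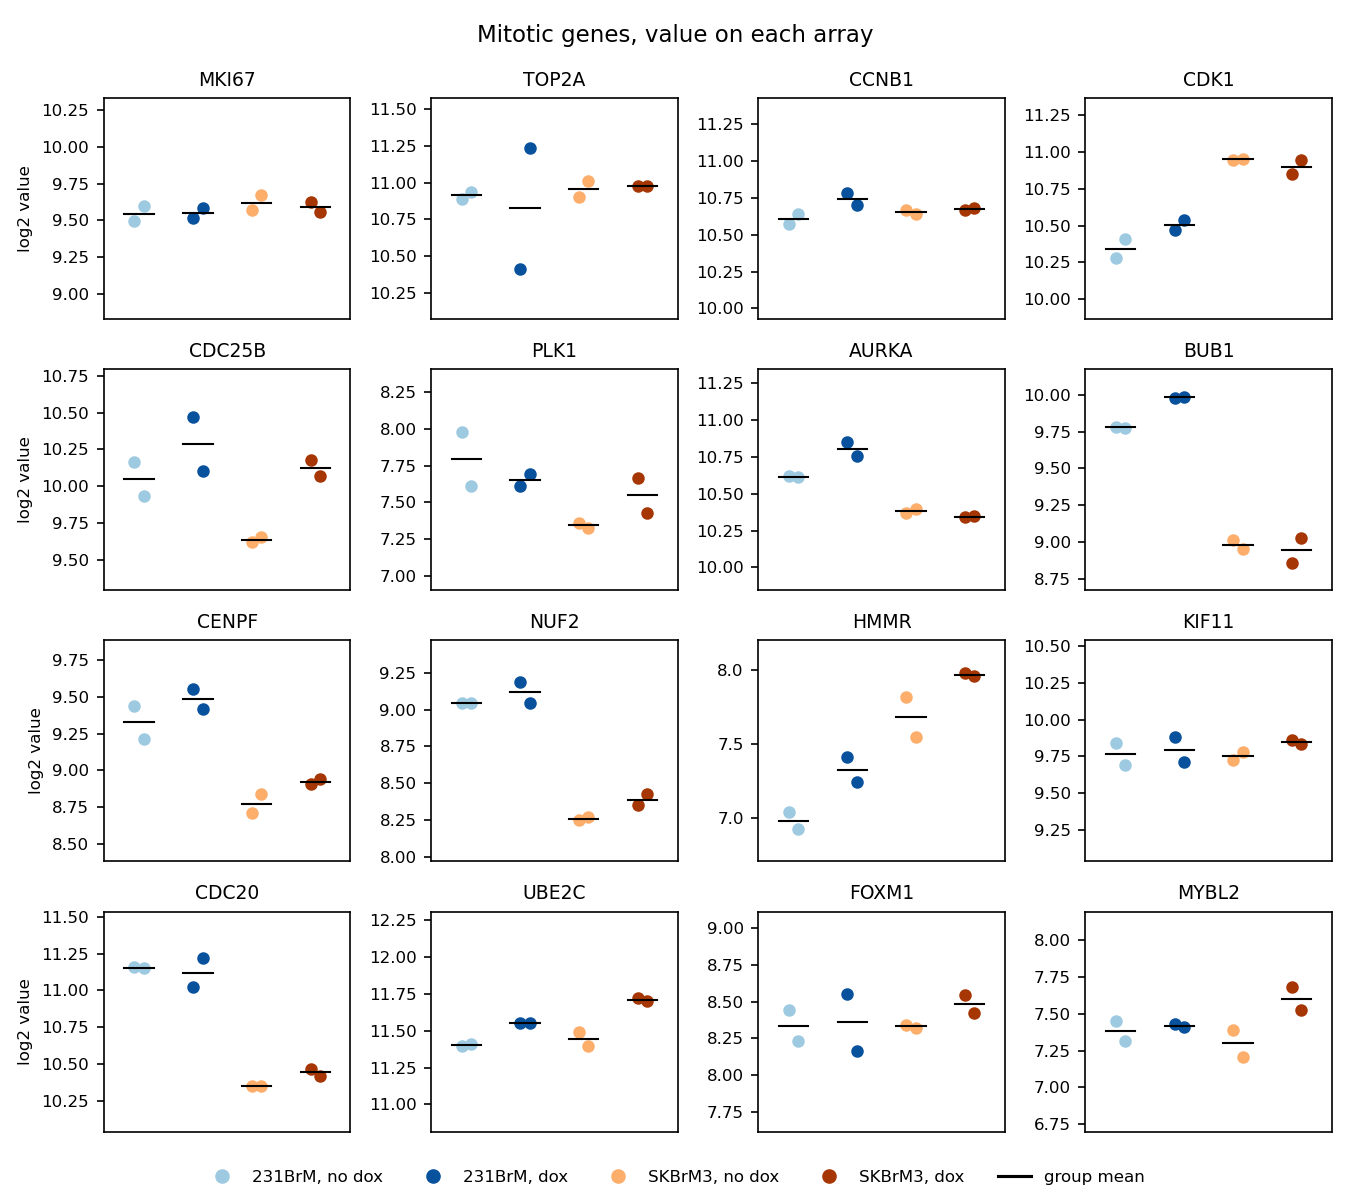
Log2 value on each of the 8 arrays for 16 members, 2 points a group with a bar at the group mean; every panel spans 1.5 log2 units, from a different base. The doxycycline shifts are small beside the gap between the lines in BUB1, NUF2, CDC20 and CENPF, and the 2 doxycycline arrays of 231BrM lie far apart for TOP2A.

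The count of 0 calls in 231BrM depended on 1 array. Without 231BrM doxycycline replicate 2, so that the array of raised 3′ actin signal stood alone for its group, 8 members were called: CDC25B, CDC25C, HMMR, KIF4A, NDC80 and NEK2 higher, and BIRC5 and TOP2A lower, where 12.7% of all genes were then called. Without replicate 1 none was called in that line, and the median member difference was 0.09, where the median of all genes was 0.00. In SKBrM3 the fit without either 231BrM doxycycline array called 3 members, CDC25B, KIF23 and UBE2C, all higher, where 12.5% of all genes were then called.

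Related cell cycle genes outside the list were read from 7 lists covering 181 tested genes. None of the 181 was called in 231BrM by limma, where 0.162% of all genes were called. Before adjustment 4.97% were higher and 4.97% lower at a p under 0.05, against 6.15% and 3.74% of all genes. In SKBrM3 4 were called higher and 4 lower, against 1.15% and 2.28% of all genes. WEE1, the kinase that holds CDK1 inactive, read 8.93 and 8.86 without and 9.36 and 9.39 with doxycycline in SKBrM3, and 9.57 and 9.53 against 9.85 and 9.87 in 231BrM. It rose by 0.48 in SKBrM3 (standard error 0.07, adjusted p = 0.013), and its difference of 0.31 in 231BrM did not pass (adjusted p = 0.25). The cyclin-dependent kinase inhibitors moved in opposite directions in SKBrM3. CDKN1A, the gene of p21, read 9.24 and 9.37 without and 8.54 and 8.51 with doxycycline there and fell by 0.78 (adjusted p = 0.0023). CDKN1B, the gene of p27, read 7.08 and 6.70 against 7.59 and 7.68 and rose by 0.74 (adjusted p = 0.024). In 231BrM their differences were -0.23 and 0.26, and neither passed the test. The other called genes were PSRC1, a microtubule factor (0.57), and RGCC (0.57, named after its value was seen), which rose, and CENPK of the centromere (-0.45), the replication factor MCM10 (-0.55) and the transcription factor KLF6 (-0.42), which fell.

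For the members with the largest line differences, the lines differed more than doxycycline moved either. Of the 39 members, 22 were not called between the lines on the control arrays. On the control arrays 15 of the 39 members were higher in 231BrM than in SKBrM3 and 2 were lower at an adjusted p under 0.05, where 19.8% of all genes tested were higher and 19.9% lower. The median member difference was 0.13, where that of all genes was -0.05. The groups stood apart for 22 members in the higher direction (33.2% of all genes) and for 8 in the lower (43.6%). On the doxycycline arrays 13 members were called higher and 3 lower, against 21.8% and 19.8% of all genes. Their means share no array with the control comparison, but both tests use a shared estimate of the spread from all 8 arrays. The calls of these comparisons are therefore not independent. A total of 14 members were called the same way in both, 12 higher and 2 lower, as were 30.5% of all genes.

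Of the kinetochore and centromere members 4 of 5 were higher. NUF2 averaged 9.04 ± 0.00 in 231BrM and 8.26 ± 0.01 in SKBrM3 (SD, n = 2 arrays each), 0.78 higher (standard error 0.08, 1.72-fold, limma adjusted p = 0.00013). NDC80, which forms a complex with NUF2, was 0.62 higher, CENPF 0.55 higher and CENPE, a kinetochore motor, 0.53 higher. CENPA, the histone variant that marks the centromere, did not pass, at -0.10. Of the checkpoint genes BUB1 alone was called, 0.80 higher (standard error 0.08, 1.74-fold), and BUB1B, BUB3, MAD2L1 and TTK lay between -0.17 and 0.13.

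CDC20 had the largest difference of any member. It averaged 11.15 ± 0.00 in 231BrM and 10.35 ± 0.00 in SKBrM3, 0.81 higher (standard error 0.09, 1.75-fold, adjusted p = 0.00015), while UBE2C, of the same complex, differed by -0.04. Another probe set of CDC20 gave 0.82, and a dim one gave -0.18. Of the mitotic kinases NEK2 was 0.76 higher, PLK1 0.45 higher and AURKA 0.24 higher, while AURKB did not pass, at 0.10.

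Of the cytokinesis genes 4 of 6 were higher in 231BrM: ANLN by 0.69 (standard error 0.08, 1.61-fold), ECT2, which activates RhoA at the cleavage site, by 0.55, and PRC1 and KIF23 by 0.25 each. KIF20A and BIRC5 lay at -0.15 and -0.16 and did not pass. Among the motors and spindle factors KIF2C was 0.64 higher (standard error 0.07, 1.56-fold), and KIF11, KIF4A, NUSAP1, TPX2 and DLGAP5 lay between -0.02 and 0.17. CDC25B was 0.41 higher.

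HMMR and CDK1 ran the other way. HMMR averaged 6.98 ± 0.08 in 231BrM and 7.68 ± 0.19 in SKBrM3, 1.63-fold lower (a difference of -0.70, standard error 0.11, adjusted p = 0.0011), and its other probe sets gave -0.65 to -0.73. CDK1 averaged 10.34 ± 0.09 and 10.95 ± 0.00, 1.52-fold lower (a difference of -0.61, standard error 0.08, adjusted p = 0.00052). Cyclins B1 and B2, the partners of CDK1, differed by -0.04 and -0.17, and CCNA2 by 0.24, and none of them passed. MKI67 (-0.08), TOP2A (-0.04), FOXM1 (0.00) and MYBL2 (0.08) did not pass either, with 95% intervals of -0.26 to 0.11 for MKI67 and -0.53 to 0.44 for TOP2A.

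**Figure D3:**
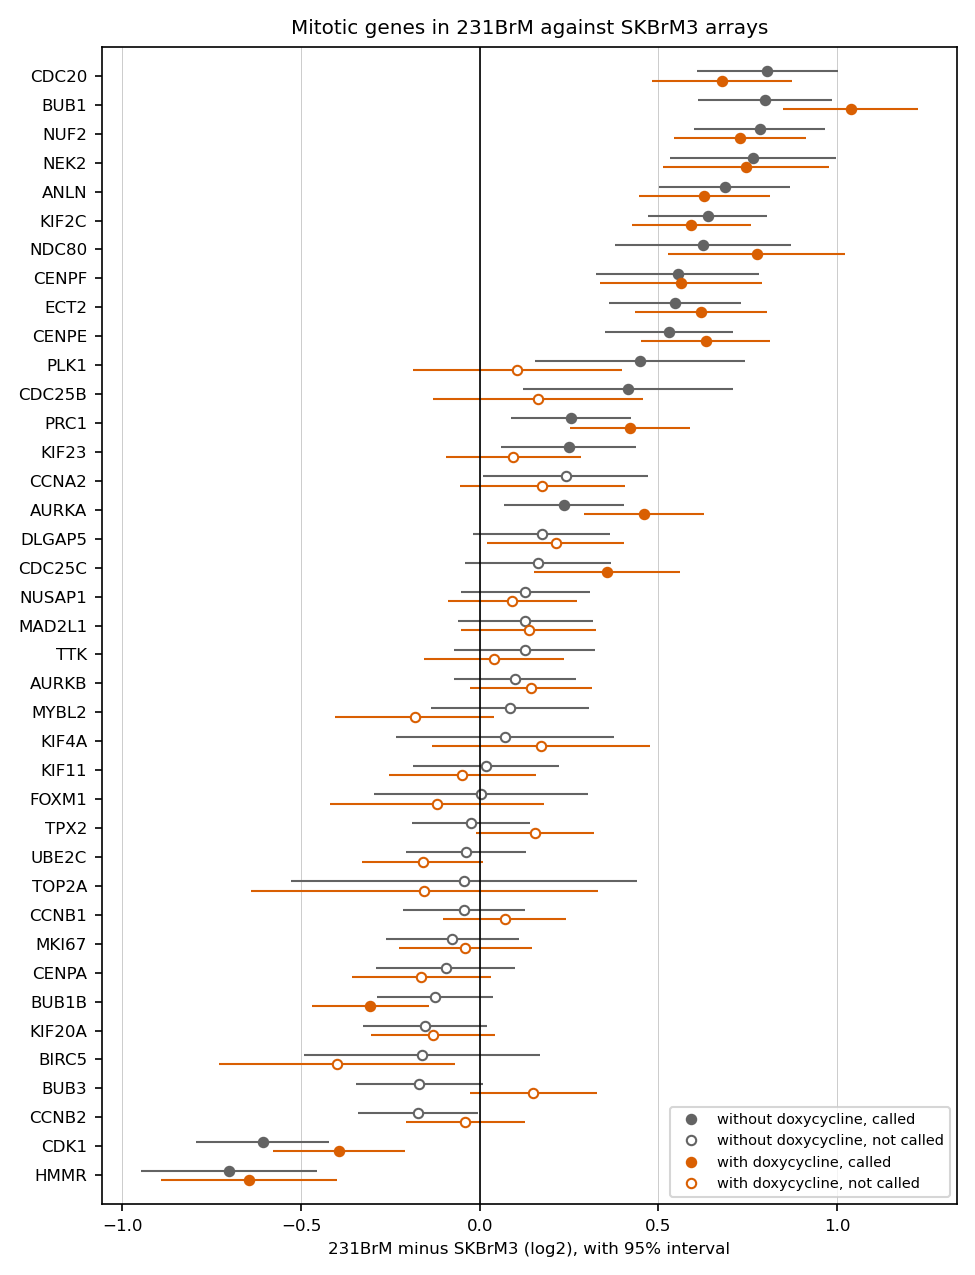
Difference 231BrM minus SKBrM3 on the log2 scale for each member, with 95% intervals, on the control arrays (grey) and on the doxycycline arrays (orange); filled points were called at an adjusted p under 0.05. The 10 members with the largest differences upward, from CDC20 to CENPE, and HMMR and CDK1 at the bottom were called on both sets of arrays.

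The doxycycline arrays gave the larger difference for BUB1, at 1.04 (standard error 0.08), and for AURKA, at 0.46. They gave the smaller for PLK1 (0.11), CDC25B (0.16) and KIF23 (0.09), which were called on the control arrays alone, while BUB1B (-0.31) and CDC25C (0.36) were called on the doxycycline arrays alone. No member's difference between the lines was shown to depend on doxycycline, since that test is the one for the difference of the doxycycline effects above. Under all 16 alternative settings of the control comparison 12 members were called, 10 higher and 2 lower. PLK1, CDC25B, PRC1, AURKA and KIF23 lost the call in at least 4 of the 16. All 5 lost it without 231BrM control replicate 1 or without either SKBrM3 control array. Of 29 other probe sets of the called members, 2 did not pass the filter, and of the remaining 27, 26 had the same sign as the one used.

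The related lists differed in direction. Of 28 spindle motors and microtubule factors, 13 were higher in 231BrM and none lower, against 19.8% and 19.9% of all genes, with a median difference of 0.18. Its members with the smallest p were KIF18A (1.16), STIL (0.97) and GTSE1 (1.27), named after their values were seen. Of 34 genes of DNA replication and the G1/S step 3 were higher and 16 lower, with a median of -0.34. GINS2, of the replicative helicase, read 7.20 and 7.20 in 231BrM and 8.78 and 8.85 in SKBrM3, and POLA1, of the primase complex, read 7.62 and 7.56 against 9.19 and 9.16, both also named after their values were seen. These genes lay on the SKBrM3 side while most called mitotic genes lay on the 231BrM side. The 35 other checkpoint and kinetochore genes were split, with 7 higher and 10 lower and a median of -0.03.

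**Figure D4:**
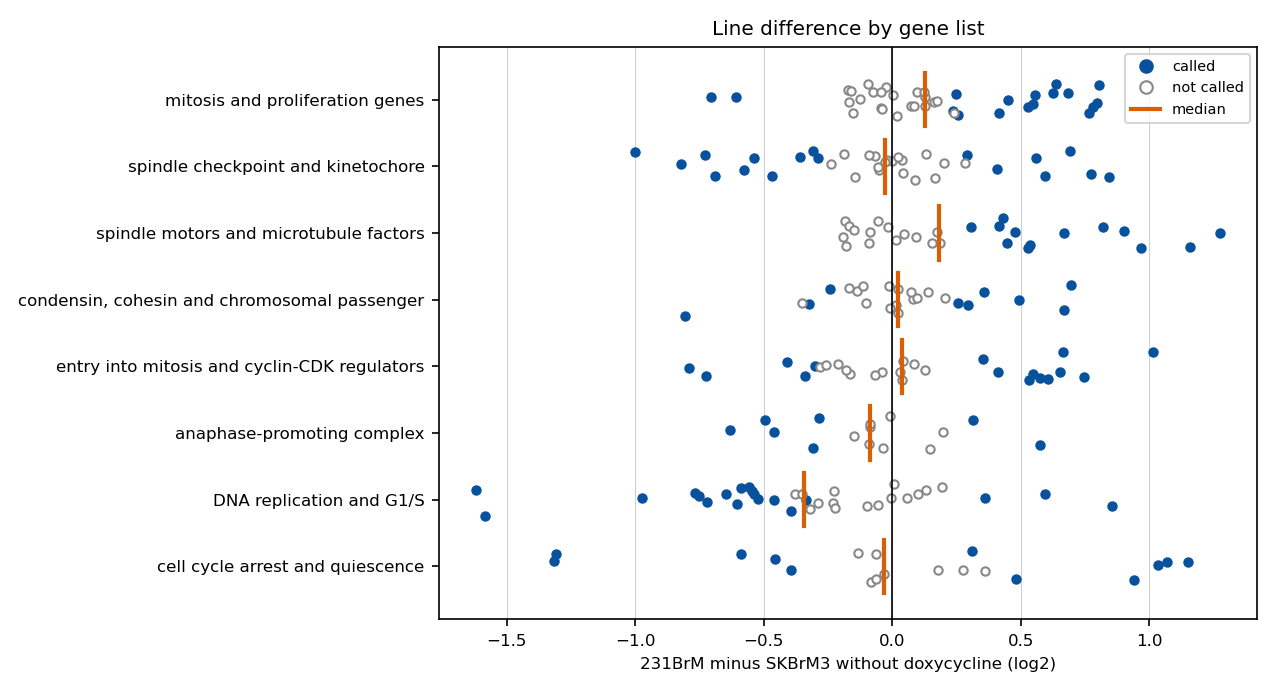
Difference 231BrM minus SKBrM3 on the control arrays, on the log2 scale, for each tested gene of the members (top row) and of the 7 related lists; filled points were called and the bar marks the list's median. Replication genes lie mostly below 0, with a median of -0.34, and spindle motors mostly above, with a median of 0.18.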

How the data were processed

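Each value is the log2 expression of a probe set on 1 of 8 arrays. The deposited log2 values were made by the authors with RMA, per the submitters' processing notes; the genome build is not given in the sources used here. Its quantile step makes array distributions alike and hides any change in total RNA per cell. Genes were named through the platform annotation and RefSeq, and each was represented by the probe set with the highest mean. Of 18239 genes, 13002 with a value above 4.41 (the 40th percentile) on at least 2 arrays were fitted with limma 3.58.1 (R 4.3.3; lmFit and eBayes, 4 group means, no covariates). Tests were two-sided with Benjamini-Hochberg adjustment over all 13002, and called means an adjusted p under 0.05. The fit was tested on simulated data. Precision is limited by the number of arrays, with a median standard error of 0.083 for a member's doxycycline effect.

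The members and lists were chosen with earlier results of these data known. By the rule for named genes, all array values are given for 14 preset members and MET, for up to 6 called members per direction and for the 3 members with the smallest p in each comparison, and up to 3 genes of each related list could be named. The comparison of the lines on doxycycline arrays was chosen after seeing the data. Alternatives varied the filter, probe sets, array weights, trend, centring, an actin covariate, the replicate block, the arrays fitted and each array left out.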

Additional observations from a re-analysis of the deposited data

How the results depend on the processing

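The median member difference moved by less than 0.05, the spread between replicates, in every alternative, and it stayed above 0 for the 3 doxycycline effects and the line difference. For the difference between the effects, where it was 0.01, it ranged from -0.04 to 0.03. Member calls for doxycycline in 231BrM were 0 throughout, except that leaving out 1 array gave 0 to 8. In SKBrM3 they were 4 with array weights, where 12.3% of all genes were called, and 2 with an intensity trend (4.5% of all genes). They were 1 with centred arrays (5.13%), 3 with the actin covariate (12%) and 1 with only the 4 arrays of that line (9.6%). This count also varied with 1 array left out. For the average effect they were 2 with the mean of all probe sets, 2 with the trend, 1 with centring, 2 with the covariate, 1 with the replicate block (HMMR) and 0 to 10 with 1 array left out (10 without 231BrM doxycycline replicate 2). For the difference between the effects they were 0 to 2 with 1 array left out. The cause of these differences was not tested. With all 8 arrays kept, line calls ranged from 14 with centred arrays (44% of all genes called) to 19 with array weights (51%). The share of all genes ran from 28.7% with no filter to 52.4% with the stricter filter, each with 17 member calls. Line calls also varied with 1 array left out. Replicate numbers were not taken to pair the arrays. The correlation of same-numbered deviations was 0.24 in 231BrM and -0.01 in SKBrM3, so some shared deviation in 231BrM is possible. With the replicate block there were 16 line calls, where 39.3% of all genes were called. The main fit gave 17, where 19.8% of all genes were called higher and 19.9% lower. Where an array was left out, the lone array of its group was assumed to vary like the others. Quantile-normalized values with 2 arrays a group limit what can be seen, and low values have no measured background.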

Other observations

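The genes beside the members on their chromosomes were read for the same line difference, as a description with no test. For each gene tested, the median control difference of the 10 tested genes on either side was taken, in RefSeq gene order (GRCh38.p14). Over 12977 genes this neighbour median centred on -0.06, with the 10th and 90th percentiles at -0.21 and 0.28. Around the 15 members higher in 231BrM it ranged from -0.09 to 0.40 with a median of 0.13, and it was above 0 for 10 of them. ANLN (0.40), CDC20 (0.31), CENPE (0.31) and ECT2 (0.31) lay above the 90th percentile, as did TTK (0.36) and CCNA2 (0.30), which were not called. BUB1 (-0.04), PLK1 (-0.04), PRC1 (-0.06), AURKA (-0.08) and CDC25B (-0.09) did not share the sign of their neighbours. Around the 22 members that were not called it had a median of -0.11. FOXM1, at 0.00 itself, had neighbours at -0.51, with 1 of 20 above 0. Around HMMR and CDK1, which were lower, it was -0.06 and -0.03.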
